A study of Mus musculus with 8 samples.

Results

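The genes described here are 9 genes that ERK signalling is known to induce and that act back on the pathway or carry it into transcription. They are the phosphatase genes Dusp2, Dusp4, Dusp5 and Dusp6, the inhibitor genes Spry1, Spry2, Spred1 and Spred2, and the transcription factor gene Etv5. They were taken by symbol, as 9 of the 23929 symbols in the deposited tables, and each had 1 gene model with an accepted quantification status in all 8 libraries. The RNA came from 4 mouse lines of pro-B cells (strain 129SV, bone marrow), untreated and kept in medium with serum, and each line gave 2 libraries, numbered replicate 1 and replicate 2. The line labelled WT carries no named deletion. CBE line 1 and CBE line 2 share the genotype label IGCR1-/-, and their titles name the loss of the CBE, the CTCF-binding elements in that control region, which lies on the V side of the D segments at the immunoglobulin heavy chain (IgH) locus. The Eµ-deleted line lacks Eµ, the intronic enhancer of the same locus. WT and the Eµ deletion are each represented by 1 line, so genotype and line cannot be told apart, and the labels do not say whether a line is 1 clone or whether replicate numbers mark separate cultures or days. The p-values below therefore weigh differences against library-to-library spread alone, and that spread may be technical.

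ERK is the last kinase of the RAS, RAF and MEK cascade, which receptors switch on at the cell surface. Active ERK raises the transcription of its own inhibitors: dual-specificity phosphatases (Dusp genes) remove the phosphates from MAP kinases, and the Sprouty and Spred proteins act at the membrane to limit RAS and RAF activation. In B cell precursors the interleukin-7 receptor and the pre-B cell receptor feed this cascade, and the mRNA of these short-lived feedback genes is widely used as a readout of it. No ERK protein or phosphorylation was measured here.

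The libraries ranged in depth from 31.3 to 49.5 M reads as implied by the interval deposited with each value, and the 9 genes rested on 518 to 15456 implied reads each. Values are FPKM, that is, fragments per length of transcript and number of mapped fragments, so levels of different genes can be compared per length. Of 16 pro-B markers, 14 were at 1 FPKM or more in every line, and the other 2, the recombinase genes Rag1 and Rag2, were below it in WT only. Of markers of other cell types, the T cell genes Cd3e, Cd4 and Cd8a, the granulocyte genes Elane and Ctsg, the NK cell gene Ncr1 and the stromal gene Dcn were listed at 0 in all 8 libraries. Others of the same lists were expressed: Lat at 105.9 to 272.4 FPKM, Zap70 at 6.79 to 30.7, the endothelial and leukocyte gene Pecam1 at 16.8 to 27.9 and the myeloid gene Lyz2 at 0.440 to 7.19. All 7 erythroid and megakaryocyte markers stayed below 1 FPKM.

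All 9 genes were expressed at 3.30 FPKM or more in every library. Dusp6 was the most abundant in each line, with mean FPKM ± SD (n = 2) of 63.7 ± 12.9 (WT), 68.0 ± 17.2 (CBE line 1), 81.2 ± 16.4 (CBE line 2) and 91.5 ± 23.5 (Eµ-deleted), and both of its libraries lay above every other gene of the set within each line. In WT the order below it was Dusp5 (36.7 ± 0.626), Dusp2 (30.0 ± 1.87), Etv5 (26.2 ± 2.17), Spred1 (21.0 ± 2.85), Spred2 (12.5 ± 0.247), Spry2 (6.03 ± 1.09), Spry1 (4.48 ± 0.464) and Dusp4 (3.70 ± 0.566). No 2 neighbours in that WT order overlapped between their libraries. The order in CBE line 2 was another: Etv5 came next to Dusp6 at 51.6 ± 4.14 FPKM, Dusp5 was in the fifth place at 22.1 ± 3.16, and Dusp4 at 14.6 ± 2.26 overlapped Spred2 at 13.4 ± 0.184. Over the 8 libraries the highest value was 4.90 times the lowest for Dusp4 and 1.24 times for Spred2, which were the most and the least variable of the set. As these are bulk samples, fewer cells that express a gene and less of its RNA per cell cannot be told apart.

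**Figure D1:**
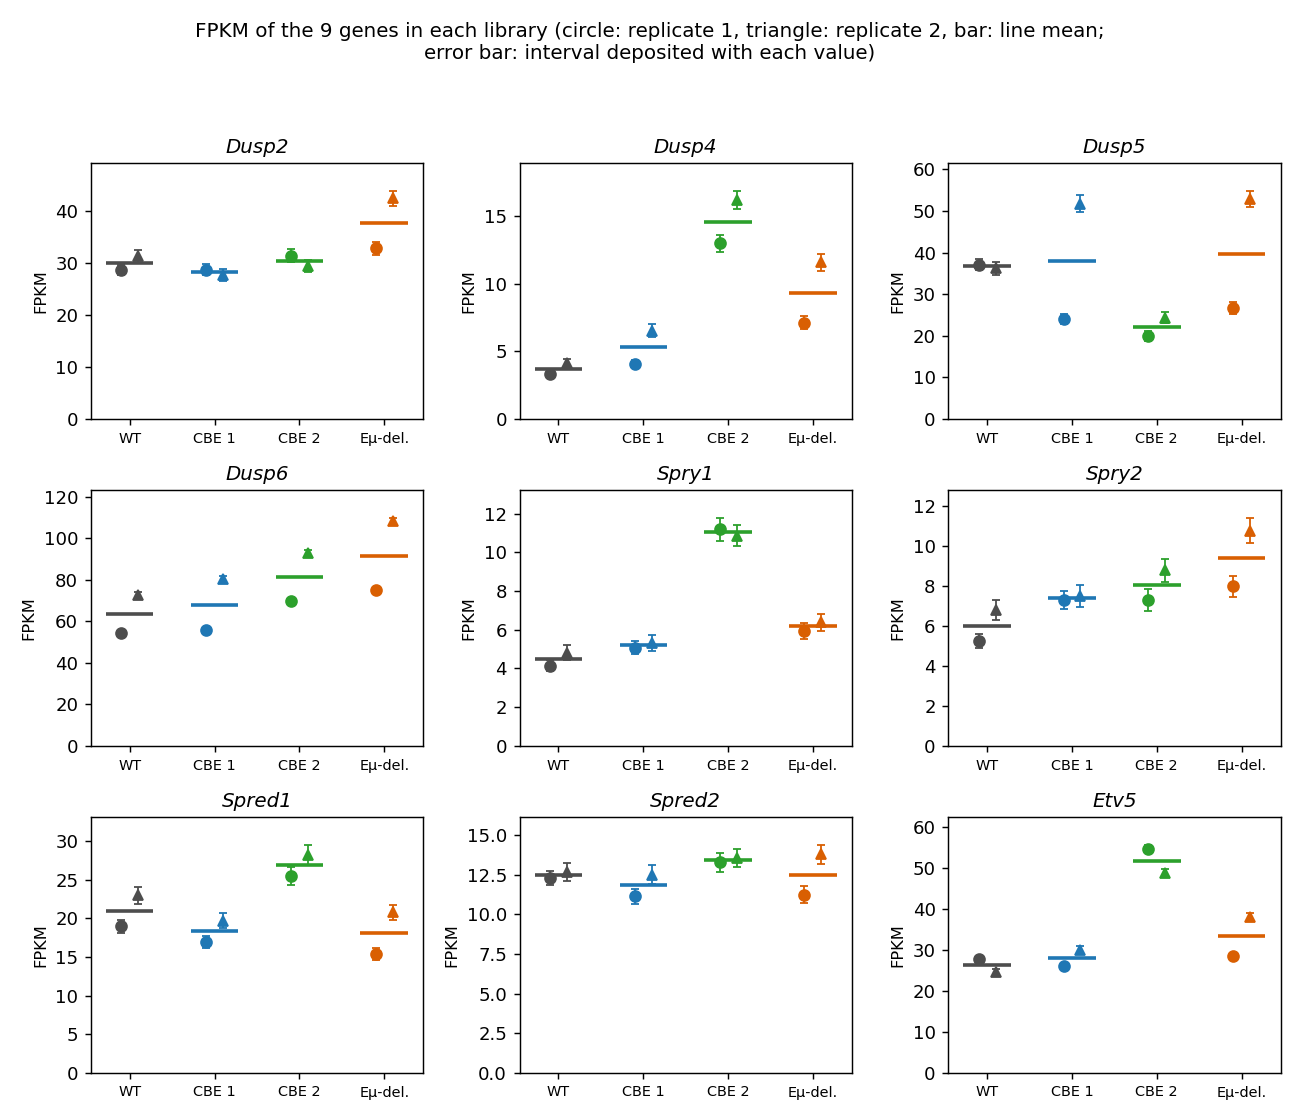
FPKM of the 9 genes (one panel each, y axis from 0) in the 8 libraries, with circles for replicate 1, triangles for replicate 2, a horizontal bar for the mean of each line and vertical bars for the interval deposited with each value. Both libraries of CBE line 2 lie above the other 6 for Dusp4, Spry1, Spred1 and Etv5, and the triangle lies above the circle in all 4 lines for Dusp4, Dusp6, Spry2, Spred1 and Spred2.

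The 250 bases upstream of the transcription start are shown for 4 genes, since ETS factors and serum response factor, which ERK activates, bind such regions: Dusp5 and Dusp6, whose values differed between the 2 libraries of a line, and Spry1 and Etv5, whose values differed mainly between lines. The sequences are from RefSeq (GRCm38.p6), whose promoter table held 8 of the 9 genes. The Dusp5 window is chr19:53528895-53529144 (plus strand), that of Dusp6 is chr10:99262981-99263230 (plus), that of Spry1 is chr3:37639697-37639946 (plus) and that of the outer of 2 Etv5 starts is chr16:22439571-22439820 (minus). Capitals mark the ETS core, GGAA or TTCC on the strand shown, and the CArG box, the motif of serum response factor. The Etv5 window holds neither and has no capitals.
Dusp5: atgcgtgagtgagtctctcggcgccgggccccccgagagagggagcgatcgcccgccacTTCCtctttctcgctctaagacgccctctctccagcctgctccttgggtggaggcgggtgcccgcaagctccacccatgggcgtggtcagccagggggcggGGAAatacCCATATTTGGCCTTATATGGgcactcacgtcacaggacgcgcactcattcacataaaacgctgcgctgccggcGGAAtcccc
Dusp6: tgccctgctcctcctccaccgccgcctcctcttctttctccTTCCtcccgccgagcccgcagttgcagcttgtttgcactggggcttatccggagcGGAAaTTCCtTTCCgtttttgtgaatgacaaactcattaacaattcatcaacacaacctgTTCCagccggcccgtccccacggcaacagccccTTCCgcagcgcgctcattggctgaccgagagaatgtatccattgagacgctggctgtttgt
Spry1: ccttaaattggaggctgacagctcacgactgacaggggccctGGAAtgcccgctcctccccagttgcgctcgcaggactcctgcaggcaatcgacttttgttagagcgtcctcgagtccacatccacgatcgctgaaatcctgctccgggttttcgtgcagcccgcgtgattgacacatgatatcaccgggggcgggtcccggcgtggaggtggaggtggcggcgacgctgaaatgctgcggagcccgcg
Etv5: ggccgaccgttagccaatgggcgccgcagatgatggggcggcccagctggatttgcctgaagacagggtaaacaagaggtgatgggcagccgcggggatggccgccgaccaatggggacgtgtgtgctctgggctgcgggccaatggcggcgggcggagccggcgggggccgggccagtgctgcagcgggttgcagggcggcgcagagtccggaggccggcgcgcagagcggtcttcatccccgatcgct

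Dusp5 held 2 CArG boxes side by side, CCATATTTGG at 82 to 73 bases and CCTTATATGG at 72 to 63 bases before the start. A CArG box was found in 1.47% of the 32841 mouse promoter windows of this length, and in none of the other 7 genes' windows. Dusp6 held 6 ETS cores, Spred2 7, Spred1 4, Dusp2, Dusp5 and Spry2 3 each and Spry1 1, beside a median of 3 over all windows. The outer Etv5 start had 0 and the inner one 4. This core is in 93.5% of all windows. The longer ETS motif CGGAAG, searched on both strands and containing the core, occurred once each in Dusp6, Spred1 and Spred2 and in 13.6% of windows. The AP-1 motif TGACTCA (4.46% of windows, both strands) and the CRE motif TGACGTCA (1.55%) were in none of the windows of these genes. These are matches of letters in a fixed window and say nothing of binding.

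Among the nuclear phosphatases, Dusp4 (mm9 chromosome 8, 35870664 to 35882948), which acts on ERK and on stress-activated MAP kinases, differed most between lines. Dusp4 FPKM was 3.30 and 4.10 for WT, 4.07 and 6.54 for CBE line 1, 13.0 and 16.2 for CBE line 2, then 7.12 and 11.6 for the Eµ-deleted line. Both libraries of CBE line 2 were above all others, those of the Eµ-deleted line came next, and CBE line 1 overlapped neither CBE line 2 nor the Eµ-deleted line. Mean FPKM was 3.94 times that of WT in CBE line 2, a log2 difference of FPKM + 1 of 1.73 (SE 0.27, limma adjusted p = 0.00541), and this call held whichever library was left out (highest adjusted p = 0.0480). In the Eµ-deleted line it was 2.53 times that of WT, a log2 difference of 1.11 (SE 0.27, limma adjusted p = 0.0299). That call was lost without WT replicate 1 (0.165) or 2 (0.105), without Eµ-deleted replicate 2 (0.116), or without either library of CBE line 2 (0.0514 for each), and with no filter on low values (0.0613). CBE line 2 also exceeded CBE line 1, by 1.33 (SE 0.27, limma adjusted p = 0.0263), a call lost without either WT library (0.0537 and 0.0540), CBE line 1 replicate 1 (0.116), or CBE line 2 replicate 1 (0.108) or 2 (0.184), and with no filter (0.0548). Against WT, CBE line 1 differed by 0.40 (SE 0.27, limma adjusted p = 0.362). With the replicate number as a block, 2 more differences of Dusp4 passed, the Eµ-deleted line above CBE line 1 by 0.71 (limma adjusted p = 0.0125) and below CBE line 2 by 0.62 (0.0172).

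Dusp5 (chromosome 19, 53603808 to 53615812), a nuclear phosphatase that is specific for ERK and holds it in the nucleus, varied widely between the 2 libraries of some lines. Dusp5 FPKM was 37.1 and 36.2 for WT, 24.1 and 51.8 for CBE line 1, 19.9 and 24.3 for CBE line 2, then 26.6 and 52.9 for the Eµ-deleted line. The WT libraries differed little, while replicate 2 was above replicate 1 by a log2 difference of 1.07 in CBE line 1 and 0.96 for the Eµ deletion. No comparison of lines passed the test for Dusp5 (F test over the 4 lines, limma adjusted p = 0.410). Its difference from WT changed sign with the replicate number: for CBE line 1 it was -0.60 within replicate 1 and 0.50 within replicate 2, and for the Eµ-deleted line -0.46 and 0.53. In CBE line 2 both libraries were below both WT libraries, by 0.71 on average (SE 0.41, limma adjusted p = 0.291). When the 4 libraries of these 2 lines were fitted alone, this difference passed the test (limma adjusted p = 0.00785). That fit leaves out CBE line 1 and the Eµ-deleted line, whose libraries differed most for Dusp5. It called 3577 genes, beside 1960 in the main fit, and no other setting tried called Dusp5 there.

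Dusp2 (chromosome 2, 127161895 to 127164113), a nuclear phosphatase induced in activated lymphocytes, was the steadiest of the nuclear members. Dusp2 FPKM was 28.7 and 31.4 for WT, 28.8 and 27.8 for CBE line 1, 31.4 and 29.5 for CBE line 2, then 32.9 and 42.5 for the Eµ-deleted line. Both Eµ-deleted libraries were above the other 6, replicate 1 by little. The Eµ-deleted line differed from WT by 0.31 (SE 0.13, limma adjusted p = 0.147). Without its lower library, Eµ-deleted replicate 1, the difference was 0.49, and those from CBE line 1 and CBE line 2 were 0.57 and 0.47. Leaving out the lower of 2 libraries raises such a difference by construction.

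Dusp6 (chromosome 10, 98725865 to 98730123) encodes the cytoplasmic phosphatase that is specific for ERK, and it showed the most even offset between the 2 libraries of a line. Dusp6 FPKM was 54.6 and 72.8 for WT, 55.8 and 80.1 for CBE line 1, 69.6 and 92.8 for CBE line 2, then 74.8 and 108.1 for the Eµ-deleted line. In each set of same-numbered libraries WT was lowest, then CBE line 1, then CBE line 2, with the Eµ-deleted library highest, but when the numbers were ignored all pairs of lines overlapped except WT and the Eµ-deleted line, whose libraries were both above those of WT. Without the block the Eµ-deleted line differed from WT by 0.51 (SE 0.27, limma adjusted p = 0.225) and CBE line 2 by 0.34 (SE 0.27, limma adjusted p = 0.438). With the replicate number as a block both passed (SE 0.073, limma adjusted p = 0.00408 and 0.0169), and so did the Eµ-deleted line above CBE line 1 by 0.42 (0.0131).

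Spry1 (chromosome 3, 37538872 to 37543521), a Sprouty inhibitor of receptor-driven RAS activation, separated the lines most cleanly. Spry1 FPKM was 4.15 and 4.81 for WT, 5.08 and 5.33 for CBE line 1, 11.2 and 10.9 for CBE line 2, then 5.95 and 6.39 for the Eµ-deleted line. No libraries of different lines overlapped, and the gap below CBE line 2 was the widest. Mean FPKM in CBE line 2 was 2.46 times that of WT, a log2 difference of 1.14 (SE 0.10, limma adjusted p = 0.000388), and 2.12 times that of CBE line 1 (log2 difference 0.95, SE 0.10, limma adjusted p = 0.00190). Both calls held whichever library was left out, with adjusted p of at most 0.00796 and 0.0341. The Eµ-deleted line was below CBE line 2 by 0.75 (SE 0.10, limma adjusted p = 0.00418), a call lost only without CBE line 2 replicate 1 (0.0575). The Eµ-deleted line exceeded WT by 0.39 (SE 0.10, limma adjusted p = 0.0360), but this call was lost without WT replicate 1 (0.240) or 2 (0.0967), without Eµ-deleted replicate 2 (0.106), or without either library of CBE line 2 (0.0858 for each), and also with no filter (0.0519), mean FPKM of at least 5 (0.0511), quantile normalization (0.0572) or the 4 libraries alone (0.111). CBE line 1 differed from WT by 0.18 (SE 0.10, limma adjusted p = 0.267).

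Spry2 (chromosome 14, 106291164 to 106296036), the other Sprouty gene of the set, had another order. Spry2 FPKM was 5.26 and 6.80 for WT, 7.31 and 7.51 for CBE line 1, 7.31 and 8.80 for CBE line 2, then 8.0 and 10.8 for the Eµ-deleted line. Both WT libraries were below the other 6. CBE line 2 overlapped both of the other deleted lines, and the Eµ-deleted libraries were above those of CBE line 1. The Eµ-deleted line differed from WT by 0.56 (SE 0.17, limma adjusted p = 0.0640), and by 0.76 without Eµ-deleted replicate 1, its lower library. CBE line 2 differed from WT by 0.37 (SE 0.17, limma adjusted p = 0.202). With the replicate block both passed (SE 0.11, limma adjusted p = 0.0108 and 0.0468).

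Spred1 (chromosome 2, 116946807 to 117008013), which brings neurofibromin to the membrane to switch RAS off, had its highest values in CBE line 2, while its Eµ-deleted libraries overlapped those of WT. Spred1 FPKM was 19.0 and 23.0 for WT, 17.0 and 19.7 for CBE line 1, 25.5 and 28.3 for CBE line 2, then 15.4 and 20.8 for the Eµ-deleted line. The libraries of CBE line 2 were above the other 6, which overlapped. CBE line 2 differed from CBE line 1 by 0.53 (SE 0.17, limma adjusted p = 0.114), from WT by 0.35 (SE 0.17, limma adjusted p = 0.219), and the Eµ-deleted line from CBE line 2 by -0.56 (SE 0.17, limma adjusted p = 0.0801). With the replicate block all 3 passed (SE 0.089, limma adjusted p = 0.0120, 0.0324 and 0.00847). The last one also passed with quantile normalization (0.0437). Without Eµ-deleted replicate 2, the higher library of that line, it was -0.76.

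Spred2 (chromosome 11, 19824445 to 19922600), its close relative, stayed between 11.1 and 13.8 FPKM in all 8 libraries. Spred2 FPKM was 12.3 and 12.7 for WT, 11.1 and 12.5 for CBE line 1, 13.3 and 13.5 for CBE line 2, then 11.2 and 13.8 for the Eµ-deleted line. Both libraries of CBE line 2 were above those of WT and CBE line 1, which overlapped each other, and the Eµ-deleted libraries spanned nearly the whole range. No comparison of lines passed with or without the block. The difference between CBE line 2 and WT was 0.096, with a 95% interval from -0.19 to 0.38, so that a log2 difference of the size seen in Spry1 lay outside it.

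Etv5 (chromosome 16, 22381386 to 22439643), an ETS factor of the PEA3 group that is induced by ERK and in turn carries its signal to target genes, had the pattern of Spry1 in CBE line 2. Etv5 FPKM was 27.8 and 24.7 for WT, 26.2 and 30.1 for CBE line 1, 54.6 and 48.7 for CBE line 2, then 28.5 and 38.1 for the Eµ-deleted line. The libraries of CBE line 2 were far above the other 6, and those of WT and CBE line 1 overlapped. Mean FPKM in CBE line 2 was 1.97 times that of WT, a log2 difference of 0.95 (SE 0.16, limma adjusted p = 0.00710), lost only without WT replicate 2 (0.0665) or CBE line 2 replicate 1 (0.0655). It was 1.84 times that of CBE line 1 (log2 difference 0.85, SE 0.16, limma adjusted p = 0.0190), lost without CBE line 1 replicate 1 (0.0985), CBE line 2 replicate 1 (0.154) or 2 (0.102). The Eµ-deleted line was below CBE line 2 by 0.63 (SE 0.16, limma adjusted p = 0.0460). That call held only without Eµ-deleted replicate 2 and had adjusted p of up to 0.265 without any other single library. It was also lost with no filter (0.0707), mean FPKM of at least 5 (0.0627), TPM scaling (0.0679) or the 4 libraries alone (0.117). The Eµ-deleted line differed from WT by 0.32 (SE 0.16, limma adjusted p = 0.200), and by 0.52 without Eµ-deleted replicate 1, its lower library.

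Counted over the set, CBE line 2 against WT asks which genes differ between a line without the CTCF sites and the WT line. Dusp4, Spry1 and Etv5 were called higher there, 3 of 9, and none was called lower. Of all 10479 genes tested, 10.5% were called higher and 8.19% lower. In the other line with this genotype, CBE line 1, 0 of 9 were called against WT (0 also at an unadjusted limma p under 0.05, which 32.3% of all genes reached), where 19.4% of all genes were called in either direction and 8.54% lower. Set against each other, CBE line 2 was called higher for the same 3 genes, and none was called lower. Of all genes 10.2% were called there, 5.17% higher and 5.03% lower. Dusp4 and Spry1 were called higher than WT in the Eµ-deleted line, 2 of 9, and none lower, where 21.8% of all genes were called, 11.3% higher and 10.4% lower. Spry1 and Etv5 were called lower than in CBE line 2, 2 of 9, and none higher, beside 7.62% of all genes lower and 5.62% higher. Against CBE line 1, 0 of 9 were called in the Eµ-deleted line (2 at an unadjusted limma p under 0.05, Dusp2 and Dusp4, beside 22.6% of all genes at that limit), where 10.0% of all genes were, 4.01% higher and 6.02% lower. An F test over the 4 lines called the same Dusp4, Spry1 and Etv5 (limma adjusted p = 0.0123, 0.000964 and 0.0149), 3 of 9, close to the 27.6% of all genes it called. The F test call of Dusp4 was lost without WT replicate 1 (0.0583) or CBE line 2 replicate 2 (0.0616), and that of Etv5 without WT replicate 2 (0.0613) or CBE line 2 replicate 1 (0.112) or 2 (0.0680). The comparisons with WT share its 2 libraries, and those with CBE line 2 share that line's.

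With the replicate number as a block the counts of members were 6 of 9 for the F test (45.3% of all genes), 0 of 9 in CBE line 1 against WT (30.0% in either direction), 6 higher in CBE line 2 than WT (15.7%), 4 higher in the Eµ-deleted line than WT (17.6%, and 34.0% in either direction), 4 higher in CBE line 2 than CBE line 1 (8.25%, with 8.32% lower), 2 higher in the Eµ-deleted line than CBE line 1 (7.61%, with 9.38% lower) and 4 lower in the Eµ-deleted line than CBE line 2 (13.3%, and 23.3% in either direction). Dusp6, Spry2 and Spred1 were the additions in the F test and in CBE line 2 against WT. Median log2 differences of the 9 genes against WT were 0.084 (CBE line 1), 0.35 (CBE line 2) and 0.32 (Eµ-deleted), beside 0.020, 0.038 and 0.0060 over all genes. By overlap alone, CBE line 2 lay above the other 6 libraries for Dusp4, Spry1, Spred1 and Etv5, 4 of 9 beside 11.5% of all genes. WT lay below the other 6 for Spry1 and Spry2 (18.2% of all genes), and the Eµ-deleted line above them for Dusp2 (7.86%). None of the 9 had both CBE line 1 libraries above or below the rest (6.92% and 6.19% of all genes), nor both libraries of CBE line 2 (7.36%) or of the Eµ-deleted line (8.66%) below it.

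**Figure D2:**
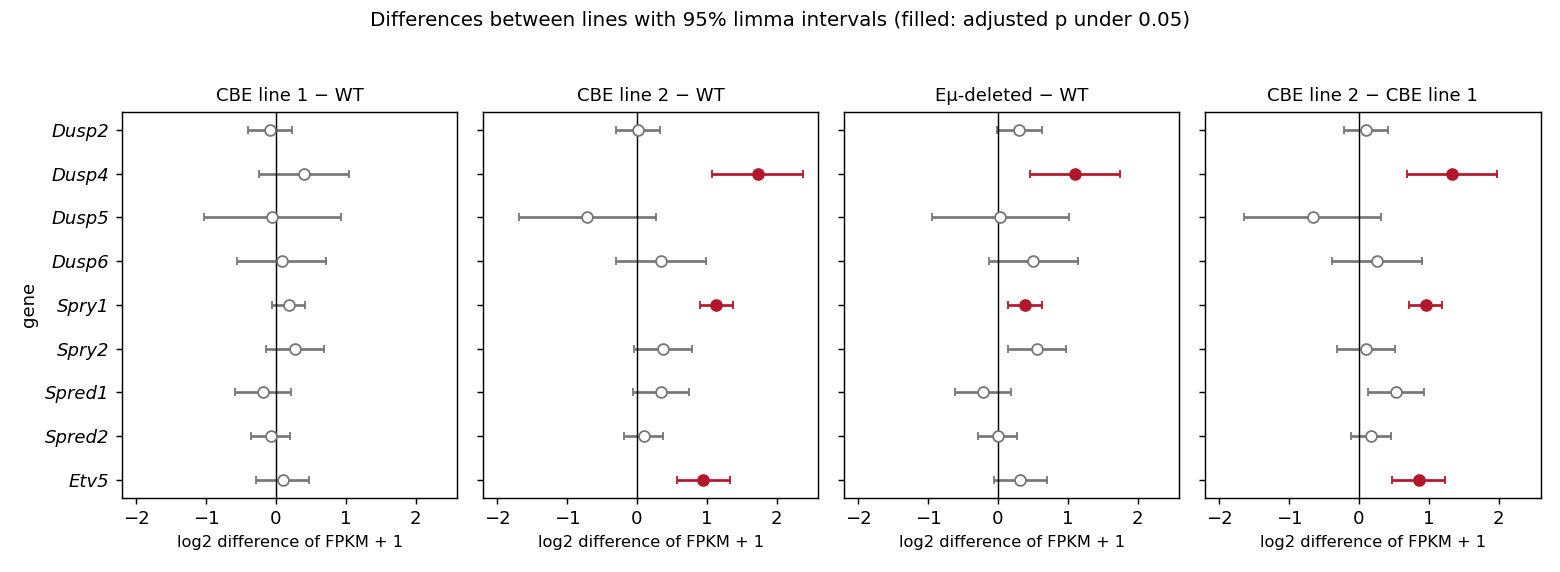
Log2 differences of FPKM + 1 between lines for the 9 genes (x axis, same scale in each panel), with 95% limma intervals and filled red points where the adjusted p is under 0.05. CBE line 1 minus WT has no filled point, and Dusp4, Spry1 and Etv5 are filled to the right of 0 in CBE line 2 against both WT and CBE line 1.

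The 2 libraries of a line were then compared, as replicate 2 minus replicate 1 with the line as a block. Replicate 2 was higher in all 4 lines for Dusp4, Dusp6, Spry2, Spred1 and Spred2, 5 of 9, while 26.1% of all genes showed this and 19.1% the reverse. The reverse was seen for none of the 9. The differences of Dusp6 were 0.41 (WT), 0.51 (CBE line 1), 0.41 (CBE line 2) and 0.52 (Eµ-deleted). Their mean of 0.46 (SE 0.052) ranked eighth of 10479 genes by unadjusted limma p (9.50e-05). Its adjusted p was 0.0765, so it did not pass the threshold. No gene of the 10479 passed it in this comparison, and at an unadjusted limma p under 0.05 there were 5 of the 9, all higher in replicate 2, beside 18.3% of all genes higher and 13.0% lower. These were Dusp4 (mean difference 0.44), Dusp5 (0.57), Dusp6, Spry2 (0.24) and Spred1 (0.26). Dusp5 was higher in replicate 2 in 3 of 4 lines, the exception being WT at -0.034.

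Spry1 and Etv5, which differed between lines, hardly differed between replicate numbers, with means of 0.069 and 0.069 and both signs present. The median of the 9 genes was 0.17 (WT), 0.19 (CBE line 1), 0.14 (CBE line 2) and 0.41 (Eµ-deleted), beside medians of all genes of 0.0015, 0.031, 0.020 and 0.064. The Eµ-deleted line was the only one in which all 9 were higher in replicate 2. Implied reads were lower in replicate 2 in WT, CBE line 1 and the Eµ-deleted line and higher in CBE line 2. What the numbers stand for is not given by the labels.

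**Figure D3:**
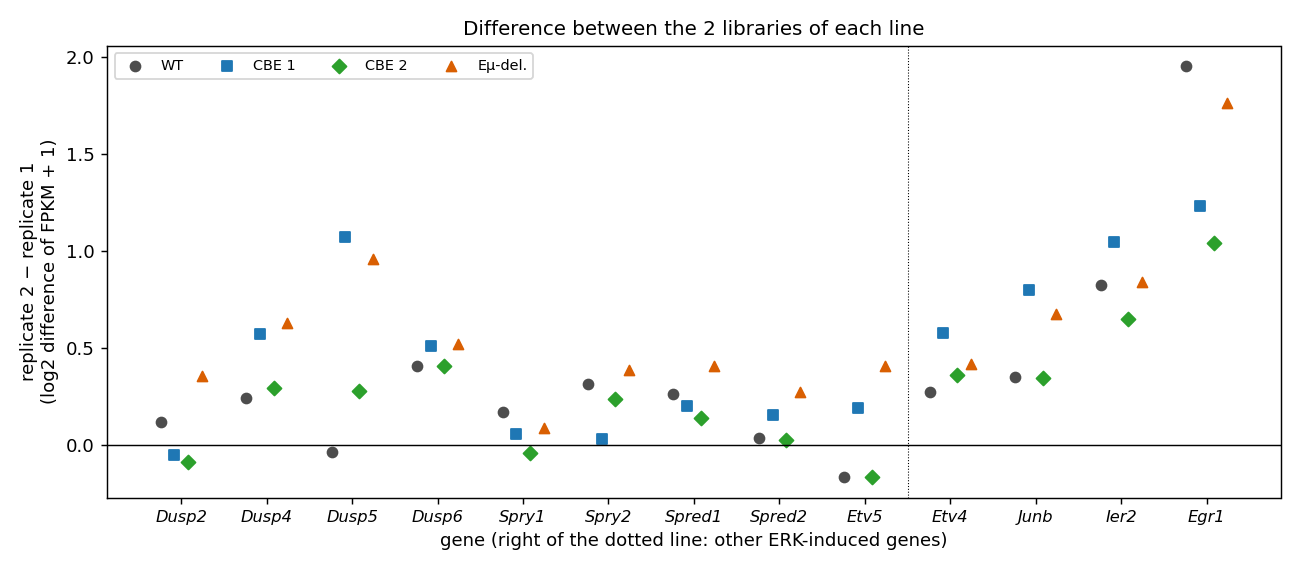
Replicate 2 minus replicate 1, as log2 differences of FPKM + 1, in each of the 4 lines (one symbol per line), for the 9 genes and, right of the dotted line, 4 other ERK-induced genes chosen after their values were seen. All 4 symbols lie above 0 for Dusp4, Dusp6, Spry2, Spred1 and Spred2 and for the 4 other genes, with Egr1 highest.

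Split into parts, the variation of log2(FPKM + 1) over the 8 libraries lay between lines for 98.6% in Spry1, 89.6% in Etv5 and 88.9% in Dusp4, beside a median of 73.6% over all genes tested. In Dusp6 only 42.8% lay between lines and 56.5% between the replicate numbers, beside a median of 10.1%. The share of the replicate numbers was 37.8% in Spred2, 35.5% in Dusp5, 24.7% in Spry2, 23.9% in Spred1, 9.67% in Dusp4, 5.93% in Dusp2, 0.784% in Etv5 and 0.636% in Spry1. Spred2 had little variation to split, since its values spanned only 1.24 times.

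**Figure D4:**
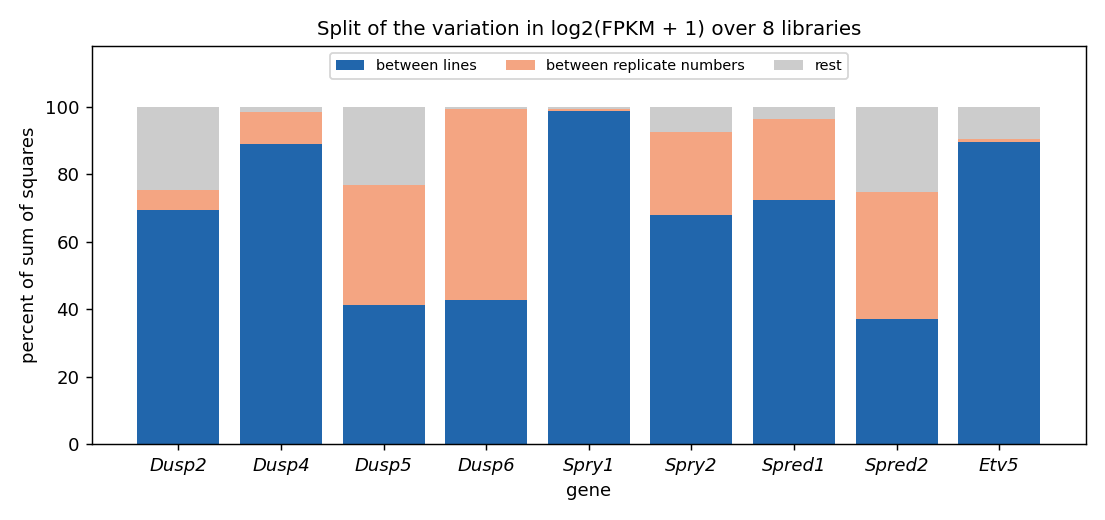
Share of the sum of squares of log2(FPKM + 1) over 8 libraries (y axis, percent) that lies between lines, between replicate numbers or in neither, for each of the 9 genes. The bar of Spry1 is nearly all between lines (98.6%), and that of Dusp6 is mostly between replicate numbers (56.5%).

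The 9 genes did not vary as a single block. Over the 8 libraries, which share 4 lines and 2 replicate numbers, Pearson's r of log2(FPKM + 1) was 0.95 between Spry1 and Etv5, 0.91 between Dusp4 and Spry1 and 0.91 between Dusp4 and Etv5, while Dusp6 went with Spry2 (0.87). Dusp5 had r of -0.55 with Spry1 and -0.38 with Etv5. After each line's mean was taken off, every pair of the 9 genes had a positive r, from 0.24 (Spry1 and Etv5) to 0.97 (Dusp4 and Dusp6). Dusp4 and Dusp5 had r of 0.94. With 2 libraries per line, these last values rest on 1 replicate difference in each of 4 lines. Their positive sign follows from replicate 2 being mostly the higher one. This r was not computed for pairs of other genes, so no background stands beside it. All of these are descriptions, with no test.

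Among all genes tested, passing over unnamed transcript models, the 3 most like each member by r over the 8 libraries were sought. None of them was another member. For Spry1 they were Maoa (0.99), which encodes monoamine oxidase A, Ankrd13b (0.99) and St3gal5 (0.98), the sialyltransferase that makes the ganglioside GM3. Maoa FPKM was 0.0167 and 0.0184 for WT, 0.299 and 0.338 for CBE line 1, 4.99 and 4.26 for CBE line 2, then 0.739 and 0.871 for the Eµ-deleted line, the same order of lines as Spry1. For Etv5 they included Zfp956 (0.99) and Tesk2 (0.98), and for Dusp4 they were Zfp961, Gsap and Eml4 (0.97 to 0.99). Maoa, Ankrd13b and Gsap reached 1 FPKM only in CBE line 2, and St3gal5 only there and in the Eµ-deleted line. They passed the filter through lines where Spry1 and Dusp4 were high, so their r is not independent of the filter. Dusp6 was most like Tmem194b (0.99), Alkbh5 (0.98), an RNA demethylase, and Dedd (0.98), and Dusp5 most like Rnf215, Orai1, the pore of the store-operated calcium channel, and Grk5 (0.96 to 0.98). Dusp2 was followed by Fam78b, Rgs2 and Glcci1 (0.96 to 0.97), Spry2 by Ppp4r2, Tsc22d2 and Ubxn7 (0.98 to 0.99), Spred1 by Abcc5, Zfp7 and Zfp275 (0.97 to 0.98), and Spred2 by Necap1, Gigyf1 and Rpain (0.97 to 0.98). These genes were picked from 10479 for their r over 8 libraries, which is a description with no test.

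The other genes of the pathway were read from lists. Of 8 other MAP kinase phosphatase genes tested (of 14), CBE line 2 against WT called 1 higher and 0 lower (2 and 2 with the block), with a median log2 difference of -0.22 beside 0.35 for the 9 members. That 1 was Dusp10, a phosphatase of the stress-activated MAP kinases, at 3.24 ± 0.289 FPKM in CBE line 2, 2.01 ± 0.380 in WT and 1.51 ± 0.251 in CBE line 1. It differed from WT by 0.50 (SE 0.13, limma adjusted p = 0.0433) and from CBE line 1 by 0.76 (SE 0.13, limma adjusted p = 0.0152). The first call was lost without any 1 of the WT or CBE line 2 libraries (adjusted p up to 0.269), and the second without CBE line 1 replicate 1 or either library of CBE line 2 (up to 0.144). Of 18 other inhibitors of the cascade (of 24), CBE line 2 against WT called 2 higher and 1 lower, and the Eµ-deleted line 3 and 1 (4 and 2 with the block). The adaptor gene Dok2, which recruits RAS GTPase-activating protein, fell in all 3 deleted lines, from 29.7 ± 2.18 FPKM in WT to 3.54 ± 0.627 (CBE line 1), 7.11 ± 0.282 (CBE line 2) and 1.89 ± 0.269 (Eµ-deleted). Of the Sprouty and Spred relatives outside the set, Spry3 reached at most 0.00405 FPKM, Spred3 at most 0.0584, and Spry4 stood between 1.60 and 3.54 in all 8 libraries.

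Of 16 genes tested from the list of other ERK-induced genes (of 24), CBE line 2 against WT called 2 higher and 0 lower (2 and 2 with the block), the Eµ-deleted line against WT 5 and 1 (7 and 2), and CBE line 2 against CBE line 1 called 1 and 2 (2 and 2). The list also holds Elk1, Elk3 and Elk4, ETS factor genes whose proteins ERK activates, so its counts are not of ERK-induced genes alone. Elk1 was among those called higher than WT in CBE line 2 (1.22, limma adjusted p = 0.000520) and in the Eµ-deleted line (1.13, 0.000864). Their median log2 difference in CBE line 2 against WT was 0.063, beside 0.95 for Etv5. Its close relative Etv4 was at 20.2 and 24.7 FPKM in WT and 10.7 and 14.1 in CBE line 2, whose libraries were thus below those of WT for Etv4 and above them for Etv5. Etv4 was not called lower there without the block. It was as low in CBE line 1, at 8.94 and 13.9 FPKM, and at 19.3 and 26.1 in the Eµ-deleted line. The early response gene Nr4a1 fell by 1.22 (SE 0.17, limma adjusted p = 0.00430) in the Eµ-deleted line against CBE line 2, a call that held whichever library was left out. It was the 1 gene of the list called lower there, while 3 were called higher (7 with the block), among them Klf2 (1.15, limma adjusted p = 0.0124). That call was lost without either library of CBE line 2 and without Eµ-deleted replicate 2. Fos, also among the 3, reached 1 FPKM in both libraries of the Eµ-deleted line only, so its test is not given. Nr4a1 was also below WT in the Eµ-deleted line, by 0.91 (SE 0.17, limma adjusted p = 0.0104, but 0.0743 without WT replicate 1), where Spry1 was above WT. Klf2 was at 0.708 ± 0.197 FPKM in WT and 4.29 ± 0.239 in the Eµ-deleted line. It reached 1 FPKM in neither WT library, so its test against WT is not given. In the comparison of replicate numbers 7 of these 16 genes were higher in replicate 2 in all 4 lines and 0 lower, with a median of 0.15, among them Egr1 (mean difference 1.5, SE 0.16), Ier2 (0.84), Junb (0.54) and Etv4 (0.41), 4 genes chosen after their values were seen. Of all genes tested, 26.1% were higher in replicate 2 in all 4 lines and 19.1% lower. Among core genes of the cascade 7 of 17 were higher and 2 lower, and among other inhibitors 7 of 18 and 1. Other MAP kinase phosphatases had 4 of 8 higher and 1 lower, exchange factors and adaptors 3 of 13 and 0, and receptors 1 of 7 and 0. Of 10 housekeeping genes 0 were higher and 6 lower in replicate 2 in all 4 lines (median -0.14), and of 16 pro-B markers 0 were higher and 2 lower (median -0.10).

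Upstream of the members, the core genes of the cascade had medians near those of all genes. Of 17 RAS, RAF, MEK and ERK core genes (of 20), CBE line 2 against WT called 3 higher and 0 lower (4 and 2 with the block), and their median there was 0.072. Ksr1 is a scaffold that holds RAF, MEK and ERK together, and its FPKM was 0.606 ± 0.181 (WT), 0.441 ± 0.0513 (CBE line 1), 2.12 ± 0.231 (CBE line 2) and 1.41 ± 0.0407 (Eµ-deleted). It was highest in CBE line 2, as Dusp4, Spry1 and Etv5 were. Ksr1 reached the filter level of 1 FPKM only in CBE line 2 and the Eµ-deleted line. Its tests against WT and CBE line 1 are therefore not given. The Eµ-deleted line differed from CBE line 2 by -0.37 (limma adjusted p = 0.0814). Mapk3, which encodes the kinase ERK1, rose in the Eµ-deleted line against WT by 0.53 (SE 0.087, limma adjusted p = 0.00711), a call that was lost without either WT library (adjusted p up to 0.0810). Of 13 RAS exchange factors and adaptors (of 19), none was called lower than WT. Those called higher numbered 2 in CBE line 2 (3 with the block), 4 in CBE line 1 and 3 for the Eµ deletion (6 with the block). The docking adaptor gene Gab1 had FPKM of 0.155 ± 0.0190 (WT), 2.67 ± 0.246 (CBE line 1), 3.59 ± 0.177 (CBE line 2) and 0.929 ± 0.436 (Eµ-deleted). It reached 1 FPKM in neither WT library, so its tests against WT are not given.

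Only 7 of 20 receptors that feed the cascade and 3 of 13 of their ligands passed the filter on low values. Kit, the stem cell factor receptor, was listed at 0 in all 8 libraries, and Flt3 reached at most 0.529 FPKM. The interleukin-7 receptor gene Il7r stood between 27.9 and 71.2 FPKM. Of these receptors, those called higher than WT numbered 3 in CBE line 1, 1 in CBE line 2 (2 with the block) and 3 for the Eµ deletion. None was called lower. The ligand gene Csf1 was higher than WT in all 3 deleted lines, with FPKM of 6.99 ± 1.53 (WT), 18.0 ± 3.55 (CBE line 1), 21.9 ± 2.30 (CBE line 2) and 16.4 ± 0.464 (Eµ-deleted), while its receptor gene Csf1r reached at most 0.0360 FPKM.

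Markers of other cell types also moved with the lines. Of 9 T cell markers 4 were tested. Lat was lower than WT in each of the 3 deleted lines, a call lost for the Eµ deletion without WT replicate 1 (adjusted p = 0.0629). Cd28 (4.07 to 5.49 FPKM in WT, at most 0.730 elsewhere) and Cd5 (2.20 to 2.82 in WT, at most 0.495 elsewhere) passed the filter on low values only through WT, so their tests are not given. The summed level of the list was 283.5 to 302.1 FPKM for WT, 113.1 to 127.9 for CBE line 1, 141.5 to 151.4 for CBE line 2 and 161.9 to 193.1 for the Eµ-deleted line, nearly all of it Lat and Zap70. Of 5 NK cell markers 2 passed the filter, each through the line where it was highest, so no test is given. Klrd1 was highest in CBE line 2, as Dusp4, Spry1 and Etv5 were, at 2.19 to 2.22 FPKM beside at most 0.793 elsewhere. Klrb1c was highest in WT, at 1.76 and 2.39 FPKM, beside 0.913 and 1.09 in CBE line 2 and at most 0.774 in the other 2 lines. The sum of the NK list was 3.11 to 3.32 FPKM for CBE line 2, 1.83 to 2.53 for WT, 0.927 to 1.37 for CBE line 1 and 0.719 to 1.09 for the Eµ-deleted line. The sum of 10 myeloid markers was 3.08 to 3.58 FPKM for CBE line 2, 4.17 to 5.07 for the Eµ-deleted line, 4.88 to 9.23 for WT and 5.34 to 11.98 for CBE line 1. Of 9 stromal and endothelial markers only Pecam1 was above 1 FPKM, at 16.8 and 18.4 in CBE line 2 and 22.2 to 27.9 elsewhere. The part of these genes in the differences of the 9 members was not tested.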

How the data were processed

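RNA of 4 pro-B cell lines was sequenced as stranded poly(A) libraries, 2 per line. The deposited values are FPKM, made by the authors with TopHat and Cufflinks on mm9, per the submitters' processing notes. Versions, settings and strandedness of counting: not given in the sources used here. Of 23929 symbols, 277 at several loci were summed and 21 with a failed quantification status were left out. Reads were implied from each deposited interval, taken as 2 SD on each side, and such intervals cover counting error only. Of low values 59.8% implied whole reads (tolerance 0.01), too few for a test on counts.

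Genes at 1 FPKM or more in at least 2 of 8 libraries (10479, all 9 members among them) were tested on log2(FPKM + 1), which understates the change of low genes, with limma 3.58.1 in R 4.3.3: a mean-variance trend, a spread shared by the 4 lines (4 residual and 2.65 prior degrees of freedom), Benjamini-Hochberg adjustment over all genes tested and a threshold of 0.05. Values after ± are SDs. The procedure was tested on simulated data. The replicate numbers were taken to pair the libraries, since differences between replicates 2 and 1 correlated across genes between every pair of lines (r 0.28 to 0.50). The block with that number was therefore fitted beside the fit without it.

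The members and lists were chosen with earlier results of these data known, and so was the naming rule: the 9 members, up to 4 genes per other list with the largest difference between lines among those called by the F test, and the 3 genes most like each member. Some genes that this rule names are not reported here. Other genes are named as list members at 0 or after their values were seen (Spry3, Spry4, Spred3, Etv4, Il7r, Flt3, Csf1r, Zap70 and those said to be so chosen). The lists were other MAP kinase phosphatases, other inhibitors, other ERK-induced genes, the core cascade, exchange factors and adaptors, receptors, ligands, pro-B, T cell, NK cell, myeloid, erythroid and megakaryocyte, stromal and endothelial, and housekeeping genes.

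Other settings tried were a pseudocount of 0.1 or of 5, filters removed or set at mean FPKM 5, scaling by quantiles, to TPM or by median-of-ratios factors, a robust prior, no trend, the 4 libraries of a pair alone, the replicate block (no line block between replicates), single libraries left out and, chosen after seeing the data, keeping other quantification statuses. A line left with 1 library was taken to have the spread of the others. Gene positions are those of the deposited mm9 values. Promoter sequences are RefSeq's on GRCm38.p6, and no coordinates were converted.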

Additional observations from a re-analysis of the deposited data

Results flagged for a closer look

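The 2 CBE lines carry the same genotype label, but their differences from WT were not the same for 3 of the 9 genes, tested as CBE line 2 minus CBE line 1. On the log2 scale the gap between the lines was 1.33 for Dusp4, 0.95 for Spry1 and 0.85 for Etv5, with limma adjusted p of 0.0263, 0.00190 and 0.0190. In each case both libraries of line 2 lay above both of line 1. The gap of Spry1 passed whichever library was left out, and those of Dusp4 and Etv5 did not. The cause was not tested.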

How the results depend on the processing

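With the replicate block, the number of members called became 6 by the F test over lines, 6 in CBE line 2 against WT and 4 in CBE line 2 against CBE line 1. For the Eµ-deleted line it became 4 against WT, 2 against CBE line 1 and 4 against CBE line 2. The block changed no other call than those named with the results. For the Eµ deletion against WT the number fell to 0 with no filter and to 1 when mean FPKM had to reach 5, with quantile normalization and with only the 4 libraries compared. Against CBE line 2 it fell to 1 without a filter, with mean FPKM at 5 or above, TPM scaling and only the 4 libraries compared. With single libraries left out, the numbers were 1 to 4 by the F test, 2 to 3 in CBE line 2 against WT, 0 to 5 in the Eµ-deleted line against WT, 1 to 3 in CBE line 2 against CBE line 1, 0 to 1 in the Eµ-deleted line against CBE line 1 and 0 to 3 in it against CBE line 2. The highest number in the Eµ-deleted line against WT came without Eµ-deleted replicate 1, and that by the F test without either Eµ-deleted library. In each of these fits more of all genes were called as well than in the main fit. The numbers of members stayed at 0 in CBE line 1 against WT and between replicate numbers. In the last comparison, leaving out single libraries gave -0.0045 to 0.14 for Dusp2 and -0.043 to 0.15 for Etv5, negative only without Eµ-deleted replicate 1 or 2, and Spry1 turned to -0.0019 with quantile normalization, none of them called. Of the other values followed, 733 kept their direction and side of the threshold, 43 lost a call and 23 gained one. Over all genes, the calls by the F test were 2897, and 4746 with the block, 1517 with mean FPKM at 5 or above and 1440 to 1647 without a library of WT or CBE line 2. With the block, calls went from 2033 to 3142 (CBE line 1 against WT), 1960 to 3013 (CBE line 2 against WT), 2284 to 3563 (Eµ-deleted against WT), 1069 to 1736 (CBE line 2 against line 1), 1051 to 1780 (Eµ-deleted against CBE line 1) and 1387 to 2445 (Eµ-deleted against CBE line 2). With mean FPKM at 5 or above the same comparisons gave 1056, 1023, 1304, 369, 407 and 567. With only the 4 libraries compared, CBE line 2 against WT gave 3577, and the Eµ-deleted line gave 1329, 403 and 802 against WT, CBE line 1 and CBE line 2. With no filter the Eµ-deleted line gave 2758 against WT and 1753 against CBE line 2. Quantile normalization gave 2422 for it against WT, and TPM scaling gave 1482 against CBE line 2. These were more calls over all genes than in the main fit, while fewer members were called. The lowest counts with a library left out were 784, 837, 784, 259, 692 and 432 in the order above, without WT replicate 2, CBE line 2 replicate 2, WT replicate 2, CBE line 2 replicate 2, CBE line 1 replicate 2 and CBE line 2 replicate 2. Without Eµ-deleted replicate 1 the last 2 rose to 1588 and 2367. Between replicate numbers at most 7 genes were called, without CBE line 2 replicate 2, none a member. With 2 libraries per line and no stated cultures, smaller differences between lines could not be told from the spread between libraries. Each member rested on at least 518 implied reads in every library.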
